A study of Mus musculus with 26 samples.

Results

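Mammalian mitochondria carry ribosomes of their own, and the genes for the protein parts of these ribosomes were followed in mouse embryonic stem cells (ESCs) during retinoic acid treatment.
The rule goes by gene name and uses no measured value, although the family was taken up with earlier results of these data known. Its members are the genes that the GENCODE M21 annotation of the mouse build GRCm38 lists as protein-coding, with a symbol made of Mrpl or Mrps and a number.
The rule found 78 of the 55471 genes in the count table. By the roles known for their proteins, 51 belong to the large ribosomal subunit and 26 to the small subunit, and Mrps36 was kept apart.
Of the 78 genes, 45 were classed as having a counterpart in bacterial ribosomes, 31 as known only from mitochondrial ribosomes, and 2 (Mrpl55 and Mrps36) were not classed. Mrps18a and Mrps18b were put with the 31, although they are related to bacterial S18, and their paralog Mrps18c with the 45. A filter on low counts left 77 of the 78 genes among 18412 genes tested.
Mrpl53 was the exception, at 0 counts in all 26 libraries; 87.97% of its exonic bases are shared, on the same strand, with the gene Gm42688. The members lie on 17 chromosomes. The 5 on chromosome 1 (Mrpl15, Mrpl30, Mrps9, Mrpl44 and Mrps14) are described apart, because in both knockout lines the other genes of that chromosome had a median above WT, though not all of them were higher.

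The mitochondrial genome encodes a small set of respiratory chain and ATP synthase subunits, and the mitochondrial ribosome is the machine that translates them. Its RNAs are transcribed inside the organelle, whereas all of its proteins are encoded in the nucleus, made in the cytosol and imported.
The small subunit binds the messenger RNA and reads its codons. The large subunit joins amino acids at its peptidyl transferase centre and passes the new chain through an exit tunnel to the inner membrane.
ESCs rely strongly on glycolysis and have round, immature mitochondria, and mitochondria mature as these cells differentiate.

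Bulk RNA was sequenced from 26 libraries of the mouse ESC line KH2 in 3 genotypes. Cells labelled NAP1L1 alpha knock-out (alpha-KO) and cells labelled NAP1L1 knock-out (full-KO) were set against wild-type cells (WT); NAP1L1 is a histone chaperone. Each genotype was sampled at days 0, 2 and 4 of retinoic acid differentiation.
Each group had 3 libraries, except full-KO at day 0 with 2. The study asked how the knockout cells differ from WT as they differentiate. All groups, WT included, are of the KH2 line, and every later day had retinoic acid, so time in culture and the agent cannot be told apart.
The libraries of each knockout genotype share a prefix in the count table, so each may be 1 line, and line and genotype cannot be told apart. The labels do not say that replicates were separate cultures, so p-values measure only the spread between these libraries, which may be technical.

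The libraries held 13537267 to 20569706 counts each, of which the 78 genes took 0.219% to 0.409%. Levels are given as CPM, counts brought to 1 common library total, with library sizes scaled by TMM, edgeR's trimmed mean of M values. The adjusted p-values are from edgeR's quasi-likelihood test over all 18412 genes, and a gene counts as called, higher or lower, where its adjusted p is under 0.05. Library ranges without overlap were common among all genes tested. Between a knockout and WT of the same day, 44.6% to 58.7% of all genes had none. In WT against day 0 it was 72% at day 2 and 77.6% at day 4, and between alpha-KO and full-KO 39.4% to 50.3%.
Values after ± are SD for CPM and SE for log2 fold changes, with 3 libraries a group and 2 for full-KO at day 0. The knockout libraries all lay below the WT libraries of the same day in Nap1l1, with log2 fold changes of -0.78, -0.47 and -0.20 in alpha-KO and -1.36, -1.23 and -0.79 in full-KO at days 0, 2 and 4.
All 8 ESC markers checked, Pou5f1 and Nanog among them, were detected in every group, and their summed level at day 0 was 4775 to 4937 CPM in alpha-KO, 4755 to 4792 CPM in full-KO and 3482 to 3592 CPM in WT. Dppa5a went the other way, with means of 477 CPM in alpha-KO and 473 CPM in full-KO against 615 CPM in WT. Pou5f1 averaged lower in alpha-KO, with 594 CPM against 615.5 CPM in WT.

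At day 0 the members differed widely in level once transcript length was taken into account. On the scale of CPM per kilobase of each gene's principal transcript, Mrpl42, a large-subunit protein known only from mitochondria, was highest in WT at day 0, with 169.6 ± 9.55.
Next came Mrpl34 with 115 ± 7.80, Mrpl12 with 111 ± 0.424 and Mrpl52 with 104 ± 5.83 CPM per kilobase. Mrpl34 and Mrpl12 did not differ beyond 1 SD. The principal transcript has 666 of the 3682 exonic bases of Mrpl42, 418 of 1109 of Mrpl52 and all 607 of Mrpl34. The ranks therefore depend on the length used.
At the other end were Mrps25 with 3.63 ± 0.209, Mrpl48 with 4.76 ± 0.482, Mrps36 with 6.05 ± 1.83 and Mrpl35 with 6.52 ± 0.262 CPM per kilobase. Mrps36 overlapped both Mrpl48 and Mrpl35 within 1 SD. Of the exonic bases of Mrps25, 69.8% lie opposite exons of Nr2c2, so its level is uncertain.

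In all 3 genotypes the summed messenger level of the members was lower on the later days of retinoic acid. Summed over the 78 genes, alpha-KO libraries averaged 4352 ± 87.5 CPM at day 0, 2910 ± 56.4 at day 2 and 2388 ± 9.23 at day 4.
Full-KO libraries averaged 4475 ± 20.4, 2968 ± 19.2 and 2239 ± 31.1 CPM on the same days. WT libraries averaged 4404 ± 101, 2551 ± 52.1 and 2158 ± 17.9 CPM.
Set against the WT mean of day 0, the later sums stood at 66.1% and 54.2% in alpha-KO at days 2 and 4, at 67.4% and 50.8% in full-KO, and at 57.9% and 49% in WT.
At day 2 every knockout library lay above every WT library, with 2847 to 2955 CPM in alpha-KO and 2947 to 2984 in full-KO against 2491 to 2585 in WT. At day 4 the knockout libraries also lay above WT, with 2379 to 2398 CPM in alpha-KO and 2203 to 2260 in full-KO against 2141 to 2177 in WT. At day 0 the range of each knockout genotype overlapped that of WT. In bulk RNA, fewer cells of a type and less RNA per cell cannot be told apart.

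Without the 5 chromosome 1 genes the picture changed for alpha-KO at day 0 and for full-KO at day 4. The remaining 73 genes summed to 3629 to 3745 CPM in alpha-KO at day 0, below all WT libraries with 3802 to 4000 CPM, and to 3814 to 3844 CPM in full-KO, within the WT range.
At day 2 they summed to 2529 to 2606 CPM in alpha-KO and 2597 to 2645 CPM in full-KO, both above the 2291 to 2375 CPM of WT. At day 4 they summed to 2121 to 2135 CPM in alpha-KO, above WT with 1961 to 2007 CPM, while full-KO with 1949 to 2005 CPM overlapped WT.

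**Figure D1:**
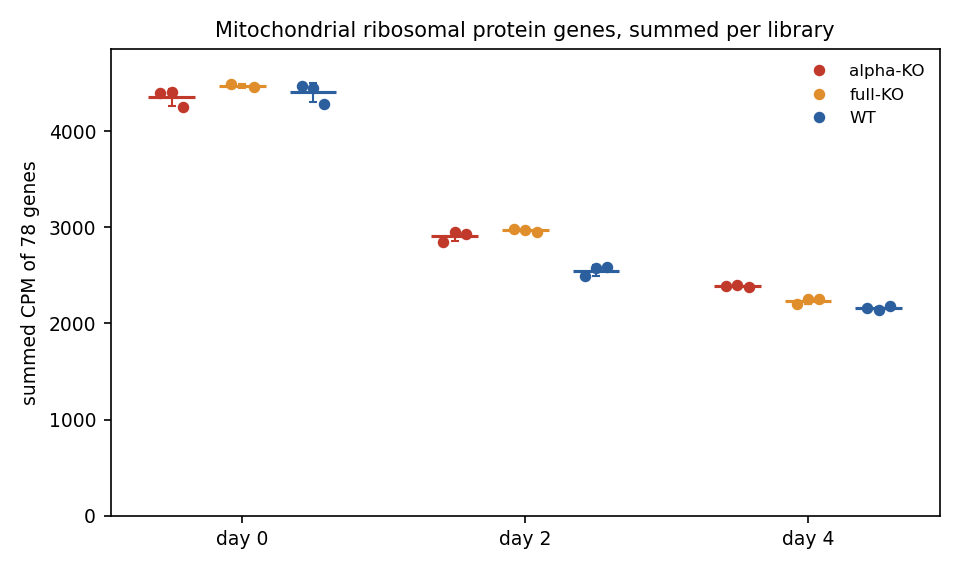
Summed CPM of the 78 genes (vertical axis, from 0) in each library by day (horizontal axis), for alpha-KO, full-KO and WT; points are libraries, and horizontal lines with whiskers are the mean ± SD of a group. All 3 genotypes stand lower at days 2 and 4 than at day 0, and at day 2 the knockout libraries, at 2847 to 2955 CPM in alpha-KO and 2947 to 2984 CPM in full-KO, lie above the WT libraries at 2491 to 2585 CPM. At day 4 the knockout libraries lie above WT as well, at 2379 to 2398 CPM in alpha-KO and 2203 to 2260 CPM in full-KO against 2141 to 2177 CPM.

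In WT cells, 68 of the 77 tested members fell and 3 rose between day 0 and day 2, and 69 fell and 3 rose between day 0 and day 4. Over all genes tested, 34.0% fell and 36.7% rose at day 2, and 36.7% fell and 40.7% rose at day 4.
The median log2 fold change of the members was -0.73 at day 2 and -0.93 at day 4, beside 0.055 and 0.096 for all genes. Both comparisons use the WT libraries of day 0.
Of 50 large-subunit genes tested, 47 fell and 2 rose at day 2 and 45 fell and 2 rose at day 4. Of 26 small-subunit genes, 21 fell and 1 rose at day 2 and 24 fell and 1 rose at day 4.
Of the 45 genes with a bacterial counterpart, 39 fell and 2 rose at day 2 and 41 fell and 2 rose at day 4, with medians of -0.79 and -0.996. Of the 30 tested genes classed as known only from mitochondria, 28 fell and 1 rose at day 2 and 27 fell and 1 rose at day 4, with medians of -0.68 and -0.90.
For 45 members no annotated exon overlaps an exon of another gene; 40 of them fell and 1 rose at day 2, and 41 fell and 1 rose at day 4.

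**Figure D2:**
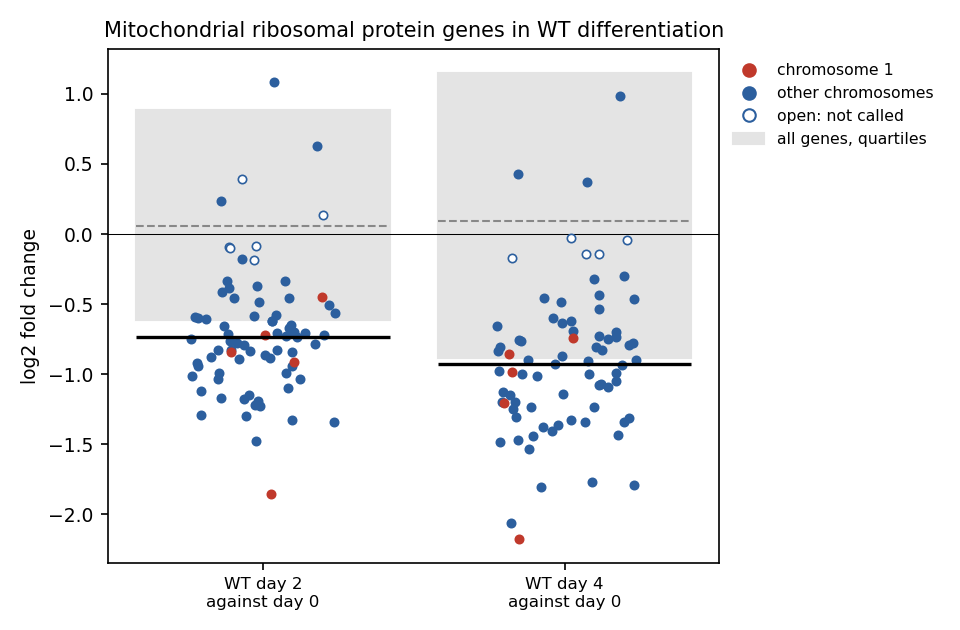
Log2 fold change (vertical axis) of the 77 tested members in WT at day 2 and day 4, each against day 0. Each point is a gene, red for chromosome 1, blue for other chromosomes and open where not called; the black bar is the members' median (-0.73 and -0.93), the grey box spans the quartiles of all genes and the dashed line is their median.

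Outside chromosome 1, Mrpl42 showed the largest called fall at day 4. It lies on chromosome 10, 95480805 to 95501940, and the 3 WT libraries had 111, 120 and 108 CPM at day 0, 52.1, 50.5 and 50.5 CPM at day 2 and 31.4, 24.1 and 26.02 CPM at day 4. No library of a later day reached a library of an earlier one, and the change at day 4 was -2.06 ± 0.071 on the log2 scale (edgeR adjusted p = 6.26e-29).
Mrpl40, a large-subunit protein of the mitochondrial type (chromosome 16, 18872018 to 18876862), had 82.5, 85.3 and 79.9 CPM at day 0, 36.5, 37.8 and 41.5 CPM at day 2 and 26.03, 22.1 and 23.1 CPM at day 4 in WT. Its libraries separated by day in the same way, and the test gave a change at day 4 (log2 fold change -1.80 ± 0.065, edgeR adjusted p = 5.43e-28).
Mrps27, a small-subunit protein with pentatricopeptide repeats, an RNA-binding fold (chromosome 13, 99344786 to 99415562), had 82.4, 78.5 and 70.8 CPM at day 0, 34.99, 34.6 and 29.7 CPM at day 2 and 22.1, 20.8 and 24.01 CPM at day 4 in WT. Here too no later library reached an earlier day (log2 fold change -1.79 ± 0.078 SE, edgeR adjusted p = 5.28e-25 at day 4). Of its exonic bases, 24.2% lie opposite a noncoding transcript.

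Other large falls came early. Mrpl24, whose bacterial counterpart lines the exit tunnel, had 76.7, 70.05 and 72.1 CPM at day 0, 26.8, 24.3 and 27.4 CPM at day 2 and 29.1, 29.1 and 29.8 CPM at day 4 in WT. Its change by day 2 was -1.48 ± 0.066 (edgeR adjusted p = 2.9e-24), and no library of day 4 was lower than the lowest of day 2.
Mrpl2, whose counterpart stands beside the peptidyl transferase centre, had 91.5, 91.5 and 87.1 CPM at day 0, 32.6, 34.05 and 40.8 CPM at day 2 and 32.05, 33.9 and 37.6 CPM at day 4. It changed by -1.33 ± 0.064 at day 2 and -1.38 ± 0.064 at day 4, and days 2 and 4 overlapped.
Mrpl14, a protein of the face between the subunits, had 17.9, 16.5 and 14.7 CPM at day 0, 6.25, 6.91 and 6.25 CPM at day 2 and 9.21, 9.35 and 10.9 CPM at day 4. Its level was lowest at day 2 (log2 fold change -1.34 ± 0.12) and stood between the other days at day 4 (-0.73 ± 0.11).
Mrpl12, the counterpart of the L7/L12 stalk protein that recruits translation factors, had 146, 146 and 145 CPM at day 0, 65.7, 70.7 and 76.7 CPM at day 2 and 52.9, 52.5 and 50.96 CPM at day 4. Each day lay below the one before (log2 fold change -1.48 ± 0.058 SE, edgeR adjusted p = 9.47e-27 at day 4). In human cells this protein has also been reported to bind the mitochondrial RNA polymerase.

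A few members went the other way. Mrps6, the counterpart of the small-subunit protein S6 (chromosome 16, 92058270 to 92112227), had 12.3, 12.4 and 11.6 CPM at day 0, 25.6, 27.4 and 23.98 CPM at day 2 and 24.3, 24 and 23.4 CPM at day 4 in WT. All 6 libraries of days 2 and 4 lay above those of day 0 (log2 fold change 1.08 ± 0.10 SE, edgeR adjusted p = 5.5e-13 at day 2), and the change at day 4 was 0.98 ± 0.10.
Of the exonic bases of Mrps6, 10.4% are also exonic, on the same strand, in Slc5a3, a sodium and myo-inositol transporter gene. The log2 fold change of Slc5a3 was 1.48 at day 2 and 1.37 at day 4. Whether the count of Mrps6 holds reads of this neighbour was not tested.
Mrpl27, whose bacterial counterpart reaches into the peptidyl transferase centre (chromosome 11, 94653767 to 94660089), had 14.8, 12.98 and 14.1 CPM at day 0, 21.4, 21.9 and 21.4 CPM at day 2 and 19.6, 17.7 and 17 CPM at day 4. Its log2 fold change was 0.63 ± 0.096 at day 2 (edgeR adjusted p = 1.77e-07) and 0.37 ± 0.098 at day 4 (edgeR adjusted p = 0.00071), with no overlap between day 0 and the later days.
Mrpl54 rose at day 2 alone among the 2 comparisons (0.23 ± 0.078), and Mrpl41 at day 4 alone (0.43 ± 0.095); whether their 2 changes differ was not tested.
Members that did not pass the test were Mrps28, Mrps21, Mrps18c, Mrps7, Mrps36 and Mrpl41 at day 2, and Mrps21, Mrpl33, Mrpl54, Mrps36 and Mrpl43 at day 4. The call of Mrpl54 was lost without WT day 2 replicate 3 in WT at day 2 (log2 0.16, edgeR adjusted p = 0.095).

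**Figure D3:**
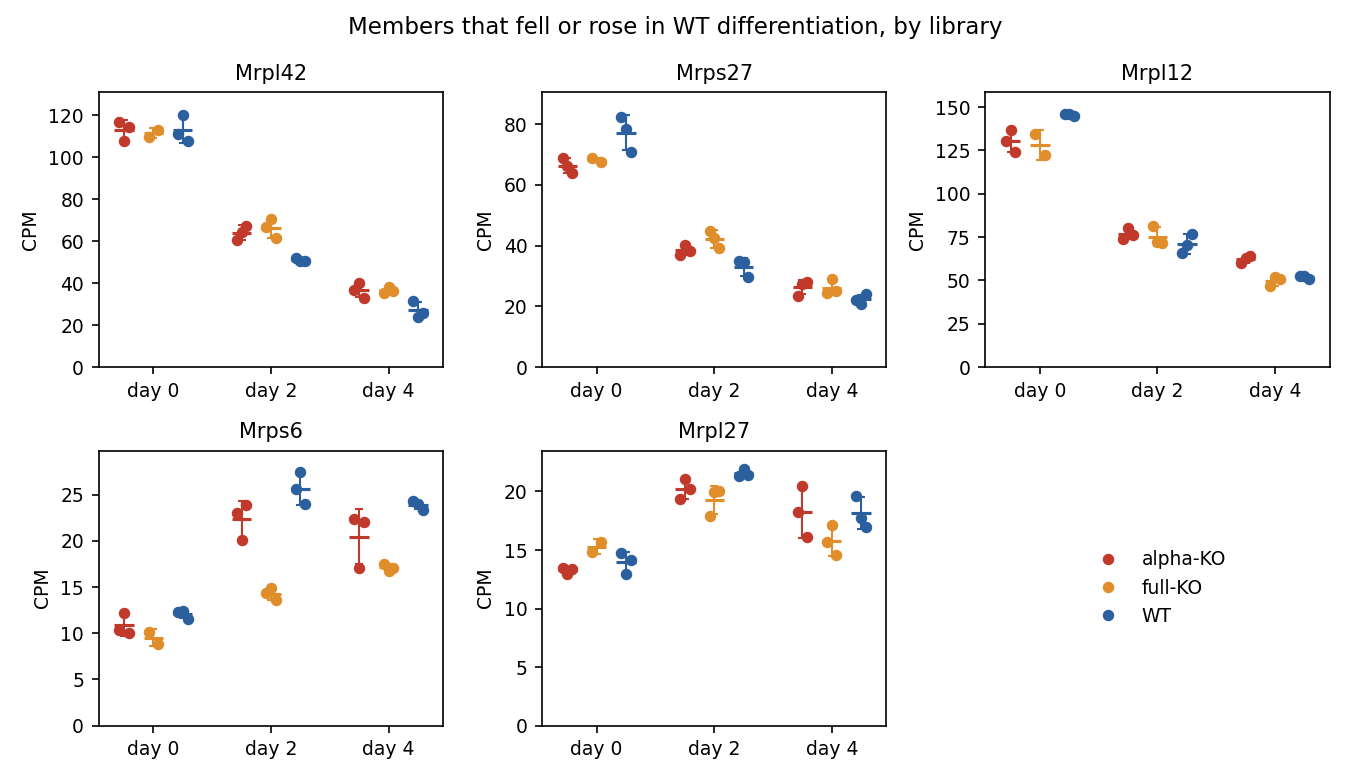
CPM by library (vertical axes, from 0) and day for Mrpl42, Mrps27 and Mrpl12, which fell in WT, and Mrps6 and Mrpl27, which rose; points are libraries of alpha-KO, full-KO and WT, horizontal lines with whiskers are mean ± SD. Mrpl42 averaged 113, 51.1 and 27.2 CPM at days 0, 2 and 4 in WT, and Mrps6 averaged 12.1, 25.7 and 23.9 CPM.

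The members share a feature of position that the naming rule did not use. A divergent partner, a gene on the opposite strand whose start lies within 1000 bases, was annotated for 33 of the 77 tested members (42.9%), against 2137 of 15162 other protein-coding genes tested (14.1%).
Of 29 partners that are no members themselves and were tested, 22 fell and 6 rose in WT at day 2 (median -0.46), and 21 fell and 7 rose at day 4 (median -0.73). Among all genes tested, 34.0% fell and 36.7% rose at day 2, and 36.7% fell and 40.7% rose at day 4.
Some pairs changed by nearly the same amount in WT at day 4. Mrps27 and Ptcd2, a mitochondrial pentatricopeptide repeat gene 81 bases away, changed by -1.79 and -1.68. Mrps12 and Sars2, the mitochondrial seryl-tRNA synthetase gene 172 bases away, changed by -1.33 and -1.28. At day 2 the changes were -1.22 and -1.24 for Mrps27 and Ptcd2, but -1.30 and -0.53 for Mrps12 and Sars2.
Others parted at day 4: Mrpl14 changed by -0.73 and its partner Tmem63b by 1.47, and Mrpl27 by 0.37 and its partner Eme1, a DNA repair nuclease gene, by -1.45.
Mrpl46 and Mrps11, which overlap head to head, form the only pair of 2 members. They changed by -1.12 and -1.14 at day 4.

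The DNA just upstream of 4 members is shown, because these genes stand for the largest falls, the clearest rise or a shared spacer: the spacers that Mrps27 and Mrps12 share with their partners, and the promoters of Mrpl42 and Mrps6, at the ends of the fall and the rise. The sequences are from RefSeq (GRCm38.p6), run 5′ to 3′ on the strand of the member, and were cut so that no base lies in an annotated exon; 66 bases next to the RefSeq start of Mrps6 are left out for that reason. Capitals mark the motifs searched that occur there, which are CCAAT in Mrps12 and CCGGAAG, read on the opposite strand, in Mrps27.
Mrps27, GRCm38 chr13:99344706-99344785, plus strand: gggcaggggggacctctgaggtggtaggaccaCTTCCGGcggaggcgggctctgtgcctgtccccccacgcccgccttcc
Mrps12, GRCm38 chr7:28741822-28741991, minus strand: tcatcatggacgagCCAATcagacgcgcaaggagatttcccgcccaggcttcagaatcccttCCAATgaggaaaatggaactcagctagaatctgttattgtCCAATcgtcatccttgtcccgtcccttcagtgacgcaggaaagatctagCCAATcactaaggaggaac
Mrpl42, GRCm38 chr10:95501950-95502149, minus strand: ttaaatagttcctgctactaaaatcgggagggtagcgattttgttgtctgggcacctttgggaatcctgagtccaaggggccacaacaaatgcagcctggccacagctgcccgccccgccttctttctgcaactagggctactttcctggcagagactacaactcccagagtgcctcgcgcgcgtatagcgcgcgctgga
Mrps6, GRCm38 chr16:92058086-92058269, plus strand: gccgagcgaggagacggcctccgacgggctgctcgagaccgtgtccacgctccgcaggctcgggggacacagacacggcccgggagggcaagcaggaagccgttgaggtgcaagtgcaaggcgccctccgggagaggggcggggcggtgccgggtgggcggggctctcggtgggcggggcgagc

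In Mrps12 the motif CCAAT, the binding site of the factor NF-Y, starts 156, 108, 68 and 19 bases before the start. In Mrps27 the single CCGGAAG, an ETS-family core, lies 48 bases before it. None of the motifs searched is in the windows shown for Mrpl42 and Mrps6. Outside the stretches shown, Mrpl42 has CCAAT, on the opposite strand, 218 bases before the start and AAGATGGCG 28 bases after it. Mrps27 has AAGATGGCG 15 bases after its start, and Mrps12 has CCGGAAG 2 bases after its start.
RefSeq promoters of 300 bases, from 250 before to 50 after the start, were found for 69 of the 78 members, of which 68 were tested. Mrps28, Mrps34, Mrps35, Mrpl4, Mrpl19, Mrpl13, Mrpl38, Mrpl54 and Mrpl15 had none in the table used.
Exact matches were counted on both strands, beside 11741 other protein-coding genes tested. CCGGAAG was in 24 of 68 members (35.3%) and 16.1% of the others. AAGATGGCG, a YY1 motif, was in 8 of 68 members (11.8%) and 2.77% of the others. Either of these, which can share the letters AAG where they meet, was in 30 members (44.1%) and 18.3% of the others.
GCGCATGC, from the palindrome that NRF1 binds, was in 8 of 68 members (11.8%) and 4.98% of the others. The E-box CACGTG, which MYC and its partner MAX bind, was in 5 of 68 members (7.35%) and 9.79% of the others, CCAAT in 26 of 68 members (38.2%) and 38.4% of the others and TATAAA in 4 of 68 members (5.88%) and 7.44% of the others.
Median GC content was 58.2% in member promoters and 60.7% in the others. In WT at day 4 the median change was -1.30 for the 8 members with AAGATGGCG and -0.84 for the 60 without, and -0.75 for the 24 with CCGGAAG and -0.99 for the 44 without. These are descriptions and were not tested.

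Each knockout genotype was then set against WT of the same day. Both comparisons of a day share the WT libraries, so their values stand side by side and are not independent.
At day 0, 8 of 77 members were higher and 19 lower in alpha-KO than in WT, beside 17.7% and 20.9% of all genes; the members' median was -0.059, and that of all genes -0.028.
In full-KO, 6 were higher and 10 lower, beside 16.2% and 17.7% of all genes, with medians of -0.013 and -0.006. With scaling factors taken from genes outside chromosomes 1, 14 and Y, this split became 8 higher and 6 lower, with a median of 0.005.
Outside chromosome 1, the counts were 3 higher and 19 lower of 72 in alpha-KO, and 2 higher and 10 lower in full-KO. The full-KO count of lower members rests on few libraries: it was 3 without full-KO day 0 replicate 2 and 5 without WT day 0 replicate 1.

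Mrpl34, the counterpart of a small basic protein of the bacterial large subunit (chromosome 8, 71464959 to 71465747), fell in both genotypes at day 0. It had 44.3, 49.97 and 47.9 CPM in alpha-KO and 50.99 and 51.8 CPM in full-KO, against 68.6, 75.3 and 66.2 CPM in WT. Every knockout library lay below every WT library. The log2 fold changes were -0.56 ± 0.073 in alpha-KO and -0.45 ± 0.082 in full-KO (edgeR adjusted p = 1.54e-08 in alpha-KO and 2.01e-05 in full-KO).
Mrps12, the counterpart of the decoding-site protein S12, had 36.3, 38.99 and 37.1 CPM in alpha-KO and 47.5 and 49.7 CPM in full-KO, against 51.4, 56.5 and 49.2 CPM in WT. It was below all other libraries in alpha-KO (log2 fold change -0.48 ± 0.072 SE, edgeR adjusted p = 3.82e-07), and the full-KO value of -0.11 ± 0.080 did not pass the test (edgeR adjusted p = 0.323).
Mrps7, whose counterpart starts the assembly of the small-subunit head, had 57.5, 56.4 and 50.8 CPM in alpha-KO and 61.4 and 59.6 CPM in full-KO, against 73.1, 73.9 and 71.1 CPM in WT. No knockout library reached the WT range; the log2 fold changes were -0.41 ± 0.059 in alpha-KO and -0.27 ± 0.066 in full-KO.

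Mrpl16, which helps to place the incoming tRNA in bacterial ribosomes (chromosome 19, 11770391 to 11774960), had 47.6, 40.7 and 45.1 CPM in alpha-KO and 38.3 and 36.9 CPM in full-KO, against 46.4, 50.7 and 50.4 CPM in WT. The full-KO value was -0.39 ± 0.087 (edgeR adjusted p = 0.000386), and the alpha-KO value of -0.14 ± 0.076 did not pass the test (edgeR adjusted p = 0.136).
Mrps33 was called lower in alpha-KO (-0.50 ± 0.17). Mrps6 was called lower in full-KO (-0.34 ± 0.13). 
Of the members called higher outside chromosome 1, Mrpl23, of the exit tunnel region, was the furthest in full-KO (0.61 ± 0.17). In alpha-KO the 3 were Mrpl28 (0.25 ± 0.058), Mrps16 (0.19 ± 0.068) and Mrpl2 (0.14 ± 0.058). Mrps16 lies on chromosome 14. The 336 other genes of that chromosome with a mean of at least 10 CPM had medians of 0.11 in alpha-KO and 0.01 in full-KO at day 0. The part of the chromosome in the value of Mrps16 was not tested. 
Mrpl2 was the other member called higher outside chromosome 1 in full-KO, with 112 and 111 CPM against 91.5, 91.5 and 87.1 CPM in WT (log2 fold change 0.31 ± 0.064 SE, edgeR adjusted p = 0.000123). Every full-KO library of Mrpl2 lay above the WT libraries. In alpha-KO at day 0 calls were lost for Mrps33 without alpha-KO replicate 2 or WT replicate 3, for Mrps16 without alpha-KO replicate 1 or 2 or WT replicate 1 or 3 and for Mrpl2 without alpha-KO replicate 2 or 3 or WT replicate 1, 2 or 3 (log2 0.12 to 0.19 and -0.39 to -0.47, edgeR adjusted p = 0.0503 to 0.148). In full-KO at day 0, calls were lost for Mrps6 without full-KO replicate 2 or WT replicate 1 or 2 and for Mrpl23 without full-KO replicate 2 (log2 0.57 and -0.25 to -0.33, edgeR adjusted p = 0.0506 to 0.294).

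**Figure D4:**
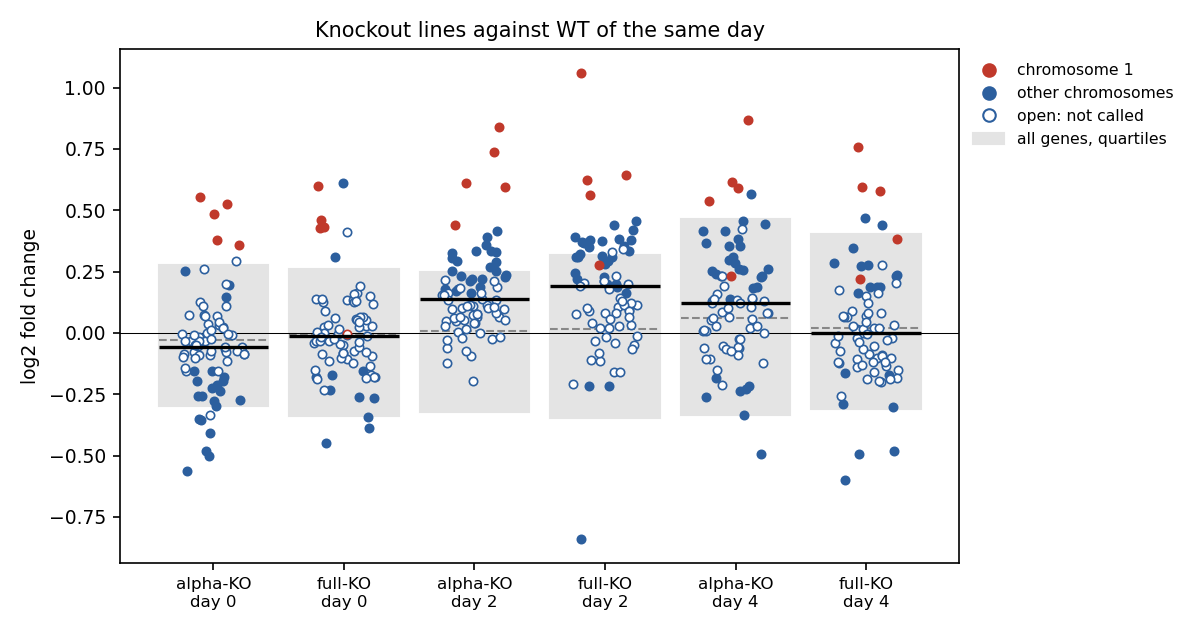
Log2 fold change (vertical axis) of the 77 tested members in alpha-KO and full-KO against WT of the same day. Each point is a gene, red for chromosome 1, blue for other chromosomes and open where not called; black bars are the members' medians, grey boxes the quartiles of all genes and dashed lines the medians of all genes. At day 2 the members' medians were 0.14 in alpha-KO and 0.19 in full-KO, and the points of Mrpl15, Mrpl30, Mrps9 and Mrpl44 on chromosome 1 are filled and above 0 in all 6 columns.

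At day 2 the members' median lay above 0 in both genotypes. In alpha-KO, 30 of 77 were higher and 0 lower, beside 19.9% and 20.3% of all genes, and the members' median was 0.14 against 0.006 for all genes. By edgeR at an unadjusted p under 0.05, 1 member was lower in alpha-KO, and by DESeq2 the count of lower members was also 0.
In full-KO, 34 were higher and 3 lower, beside 23.8% and 23.8%, with medians of 0.19 and 0.017. Outside chromosome 1, 25 were higher and 0 lower of 72 in alpha-KO, and 29 were higher and 3 lower in full-KO.
Split by subunit, 19 of 50 large-subunit and 11 of 26 small-subunit genes were higher in alpha-KO, and 21 and 13 in full-KO.
Without the 3 members on chromosome 14 as well, 24 of 69 were higher in alpha-KO and 28 in full-KO. The 336 other genes of chromosome 14 with a mean of at least 10 CPM had medians of 0.17 in alpha-KO and 0.006 in full-KO at day 2.

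Mrps5, whose counterpart S5 affects the accuracy of decoding, had 66.2, 68.9 and 74.1 CPM in alpha-KO and 78.05, 79.1 and 73.5 CPM in full-KO at day 2, against 58.5, 56.8 and 63.3 CPM in WT. All knockout libraries lay above WT. The log2 fold changes were 0.23 ± 0.056 in alpha-KO and 0.37 ± 0.056 in full-KO (edgeR adjusted p = 0.000963 in alpha-KO and 3.04e-07 in full-KO).
Mrps35, a small-subunit protein known only from mitochondria, had 31.3, 34.2 and 29.4 CPM in alpha-KO and 35.4, 34.1 and 29.01 CPM in full-KO, against 23.96, 26.5 and 24.9 CPM in WT. It was higher by 0.34 ± 0.083 in alpha-KO and 0.39 ± 0.082 in full-KO, again without overlap.
Mrpl42, which outside chromosome 1 fell most in WT by day 4, had 60.6, 64.3 and 67.4 CPM in alpha-KO and 66.8, 70.7 and 61.3 CPM in full-KO, against 52.1, 50.5 and 50.5 CPM in WT. Its log2 fold changes were 0.33 ± 0.067 in alpha-KO and 0.38 ± 0.067 in full-KO, and no knockout library fell into the WT range.
Mrps10, of the small-subunit head, had 39.5, 37.8 and 39.5 CPM in alpha-KO and 40.7, 40.3 and 39.9 CPM in full-KO, against 25.1, 31.7 and 32.4 CPM in WT. All knockout libraries were higher, by 0.39 ± 0.076 in alpha-KO and 0.44 ± 0.076 in full-KO.

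Only 3 members were called lower in full-KO at day 2. Mrps6 had 23.1, 20.1 and 23.9 CPM in alpha-KO and 14.4, 14.9 and 13.6 CPM in full-KO, against 25.6, 27.4 and 23.98 CPM in WT. The full-KO libraries lay below all others (log2 fold change -0.84 ± 0.098 SE, edgeR adjusted p = 6.16e-10), and the alpha-KO value of -0.20 ± 0.094 did not pass the test (edgeR adjusted p = 0.0901).
Slc5a3, which shares exonic bases with Mrps6, stood at -0.92 in the same full-KO comparison. The other two were Mrpl16 (-0.22 ± 0.085) and Mrpl54 (-0.22 ± 0.076). Calls were lost for Mrpl16 without full-KO replicate 1 or 2 or WT replicate 2 and for Mrpl54 without full-KO replicate 3 or WT replicate 3 in full-KO at day 2 (log2 -0.13 to -0.22, edgeR adjusted p = 0.0662 to 0.254).

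At day 4, 28 of 77 members were higher and 7 lower in alpha-KO, beside 28.7% and 24.0% of all genes, with medians of 0.12 for the members and 0.059 for all genes. In full-KO, 17 were higher and 7 lower, beside 25.1% and 24.5%, with medians of 0.00 and 0.021.
Outside chromosome 1, 23 were higher and 7 lower in alpha-KO, and 12 were higher and 7 lower in full-KO. The alpha-KO count of lower members was 4 without WT day 4 replicate 1 or replicate 3.
Mrps35 was again high, with 34.7, 28.1 and 29.9 CPM in alpha-KO and 27.8, 25.1 and 26.9 CPM in full-KO, against 21.2, 22.4 and 19.01 CPM in WT. The groups did not overlap, and the log2 fold changes were 0.56 ± 0.086 in alpha-KO and 0.35 ± 0.086 in full-KO (edgeR adjusted p = 2.6e-07 in alpha-KO and 0.000728 in full-KO).
Mrps5 had 45.1, 46.4 and 47.5 CPM in alpha-KO and 51.5, 46.8 and 46.2 CPM in full-KO, against 33.4, 33.2 and 37.5 CPM in WT. It was higher by 0.41 ± 0.062 in alpha-KO and 0.47 ± 0.062 in full-KO, again with no overlap. Mrpl42 was higher by 0.44 ± 0.077 in alpha-KO and 0.44 ± 0.076 in full-KO, and Mrpl40 by 0.30 ± 0.071 in alpha-KO and 0.28 ± 0.071 in full-KO.

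Among the lower members of day 4, Mrpl16 had 17.96, 20.1 and 16.6 CPM in alpha-KO and 17.2, 17.3 and 16.4 CPM in full-KO, against 23.7, 29.2 and 24.1 CPM in WT. No knockout library reached WT. The log2 fold changes were -0.49 ± 0.089 in alpha-KO and -0.60 ± 0.089 in full-KO (edgeR adjusted p = 6.77e-06 in alpha-KO and 1.74e-07 in full-KO).
Mrpl36, a zinc-binding protein in bacteria, had 15.7, 17.7 and 14.9 CPM in alpha-KO and 12.2, 11.5 and 11.3 CPM in full-KO, against 17.04, 17.03 and 15.2 CPM in WT. Full-KO was below every other library (log2 fold change -0.49 ± 0.099 SE, edgeR adjusted p = 4.76e-05), while the alpha-KO value was -0.023 ± 0.096 and not called.
In full-KO, Mrps6 (log2 fold change -0.48 ± 0.097 SE, edgeR adjusted p = 4.95e-05), Mrpl41 (-0.30 ± 0.093) and Mrpl34 (-0.29 ± 0.081) were called lower. In alpha-KO, Mrpl33 (-0.33 ± 0.089), Mrpl22 (-0.26 ± 0.085), Mrpl34 (-0.24 ± 0.081) and Mrps6 (-0.23 ± 0.096) were called lower. With 1 library left out, calls were lost for Mrpl22 without WT replicate 3, for Mrpl34 without alpha-KO replicate 1 or WT replicate 3 and for Mrps6 without alpha-KO replicate 2 or WT replicate 1, 2 or 3 in alpha-KO at day 4 (log2 -0.10 to -0.24, edgeR adjusted p = 0.0624 to 0.41).

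Whether the change since day 0 differed between a knockout genotype and WT was tested directly, as the log2 change in the knockout line less that in WT. By day 2, 27 of 77 members had a higher value in alpha-KO and 0 a lower one, beside 17.5% and 14.8% of all genes, and the median difference was 0.20. By edgeR at an unadjusted p under 0.05, and by DESeq2, the count of lower values was also 0.
In full-KO the counts by day 2 were 24 higher and 1 lower, beside 15.7% and 12.8%, with a median of 0.18. By day 4 they were 32 higher and 1 lower in alpha-KO, beside 24.2% and 19.7%, with a median of 0.20.
In full-KO by day 4 they were 10 higher and 2 lower, beside 19.5% and 15.7%, with a median of 0.004; the count of higher values was 5 without full-KO day 0 replicate 2. Without chromosome 1 the numbers of higher values were 26 and 30 of 72 in alpha-KO and 23 and 9 in full-KO, at days 2 and 4. A higher value means a smaller fall, or a rise, against WT over the same days.

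The largest called differences by day 2 in alpha-KO were 0.55 ± 0.11 for Mrpl34, 0.54 ± 0.11 for Mrps12, 0.47 ± 0.14 for Mrpl48 and 0.46 ± 0.065 for Mrpl15. Mrpl34 shows what this means in levels: at day 0 it had 44.3, 49.97 and 47.9 CPM in alpha-KO, against 68.6, 75.3 and 66.2 CPM in WT, and at day 2 26.2, 29.6 and 28.9 CPM in alpha-KO, against 26.9, 27.01 and 31.8 CPM in WT. The groups were apart at day 0 and overlapped at day 2.
By day 2 in full-KO the leading differences were 0.63 ± 0.068 for Mrpl15, 0.53 ± 0.11 for Mrps27, 0.53 ± 0.085 for Mrpl17 and 0.48 ± 0.11 for Mrps10, and Mrps6 alone was lower, with -0.50 ± 0.16.
By day 4 they were Mrps34, Mrps33, Mrps35 and Mrps5 in alpha-KO, from 0.49 to 0.76, with Mrpl16 lower at -0.35 ± 0.12. In full-KO they were Mrpl42, Mrps27, Mrps5 and Mrps35, from 0.36 to 0.46, with Mrps15 (-0.29 ± 0.12) and Mrpl2 (-0.26 ± 0.094) lower.
The exonic bases of Mrps34 are shared with Nme3 on the same strand (36.97%) and lie opposite Mapk8ip3 (63.4%), so its counts are uncertain. In the difference in change of full-KO by day 2, the call of Mrps6 was lost without full-KO day 0 replicate 1 (log2 -0.38, edgeR adjusted p = 0.178). Calls were lost for Mrps34 without alpha-KO day 4 replicate 1 or WT day 4 replicate 1 and for Mrpl16 without alpha-KO day 4 replicate 3 or WT day 4 replicate 2 in the difference in change of alpha-KO by day 4 (log2 0.61 to 0.66 and -0.24 to -0.29, edgeR adjusted p = 0.0504 to 0.0974). In the difference in change of full-KO by day 4 calls were lost for Mrps35 without WT day 4 replicate 3, for Mrps15 without full-KO day 0 replicate 1 or 2, full-KO day 4 replicate 1 or 2, WT day 0 replicate 3 or WT day 4 replicate 1 or 3 and for Mrpl2 without full-KO day 0 replicate 1 or 2, full-KO day 4 replicate 3, WT day 0 replicate 3 or WT day 4 replicate 3 (log2 0.29 and -0.20 to -0.30, edgeR adjusted p = 0.0549 to 0.174).

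Some members were called lower than WT at day 0 and higher on a later day; they were picked out after their values were seen. The share of all genes with such calls was not counted. In alpha-KO, Mrps27 stood at -0.22 at day 0 and 0.22 at day 2, Mrpl17 at -0.27 at day 0 and 0.18 at day 2, Mrpl40 at -0.18 at day 0 and 0.17 at day 2 and Mrpl49 at -0.24 at day 0 and 0.16 at day 2. Mrps27 had 68.8, 66.2 and 63.8 CPM in alpha-KO at day 0, against 82.4, 78.5 and 70.8 CPM in WT, and 36.97, 40.2 and 38.3 CPM at day 2, against 34.99, 34.6 and 29.7 CPM in WT; the ranges met on neither day.

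In full-KO, Mrpl17 stood at -0.16 at day 0 and 0.37 at day 2, Mrpl18 at -0.23 at day 0 and 0.22 at day 2 and Mrpl51 at -0.18 at day 0 and 0.16 at day 2. In alpha-KO at day 0, calls were lost for Mrps27 without WT replicate 1 and Mrpl40 without WT replicate 2 (log2 -0.15 to -0.17, edgeR adjusted p = 0.0584 to 0.0706). Calls were lost for Mrps27 without alpha-KO replicate 2 or WT replicate 3, for Mrpl17 without alpha-KO replicate 2 or WT replicate 2, for Mrpl40 without alpha-KO replicate 2 or 3 or WT replicate 1 or 2 and for Mrpl49 without alpha-KO replicate 1 or WT replicate 2 or 3 in alpha-KO at day 2 (log2 0.13 to 0.19, edgeR adjusted p = 0.0626 to 0.183). With 1 library left out, calls were lost for Mrpl17 without full-KO replicate 1 or 2 or WT replicate 1 or 2, for Mrpl18 without full-KO replicate 2 and for Mrpl51 without full-KO replicate 2 or WT replicate 1 or 3 in full-KO at day 0 (log2 -0.12 to -0.19, edgeR adjusted p = 0.0616 to 0.229). In full-KO at day 2, calls were lost for Mrpl18 without full-KO replicate 3 or WT replicate 1 and for Mrpl51 without full-KO replicate 2 or WT replicate 1 or 3 (log2 0.12 to 0.15, edgeR adjusted p = 0.0804 to 0.156).

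The 5 members on chromosome 1 stood out by their position. 555 other genes of chromosome 1 with a mean of at least 10 CPM had median log2 fold changes against WT of 0.45, 0.47 and 0.47 in alpha-KO and 0.33, 0.27 and 0.30 in full-KO at days 0, 2 and 4. Mrpl15, Mrpl30, Mrps9 and Mrpl44 were called higher in both genotypes on all 3 days, and no member on another chromosome was. How many of all genes were called so in both genotypes on all 3 days was not counted. At day 0 alone, 539 of 1115 tested genes of chromosome 1 were higher in alpha-KO, beside 17.7% of all genes. The part of the number of gene copies in these values was not tested. For each of the 5, the nearest 10 genes of at least 10 CPM on each side serve for comparison.

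Mrps9, whose counterpart S9 reaches towards the tRNA in the peptidyl site (chromosome 1, 42851233 to 42905683), had 116, 112 and 110.3 CPM at day 0, 60.3, 71.7 and 61.1 at day 2 and 57.6, 63.7 and 59.8 at day 4 in alpha-KO libraries. It had 116 and 117 CPM at day 0, 61.95, 73.7 and 64.6 at day 2 and 49.7, 50.5 and 50.1 at day 4 in full-KO libraries. It had 74.6, 74.6 and 80.8 CPM at day 0, 41.5, 43.7 and 42.9 at day 2 and 33.2, 34.4 and 31.9 at day 4 in WT libraries. On every day each knockout library lay above each WT library.
The log2 fold change in alpha-KO was 0.56 ± 0.058 at day 0, 0.59 ± 0.064 at day 2 and 0.87 ± 0.067 at day 4 (edgeR adjusted p = 9e-11, 1.51e-10 and 2.92e-15). In full-KO it was 0.60 ± 0.065 at day 0, 0.65 ± 0.063 at day 2 and 0.60 ± 0.067 at day 4. Its 20 neighbours had medians of 0.58, 0.47 and 0.29 in alpha-KO and 0.53, 0.39 and 0.34 in full-KO.

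Mrpl15, a large-subunit protein with a bacterial counterpart (chromosome 1, 4773206 to 4785739), had 321, 334 and 306 CPM at day 0, 118, 123 and 124 at day 2 and 84.8, 82.96 and 81.99 at day 4 in alpha-KO libraries. There were 335 and 329.8 CPM at day 0, 146, 139.9 and 142 at day 2 and 93.2, 92.5 and 90.05 at day 4 in full-KO libraries, and 245, 242 and 252 CPM at day 0, 64.3, 65.05 and 75.2 at day 2 and 53.8, 54.4 and 54.9 at day 4 in WT libraries. The groups did not overlap on any day, although Mrpl15 was also the member that fell most in WT, by a log2 fold change of -1.85 ± 0.048 at day 2 and -2.18 ± 0.049 at day 4.
Against WT it was higher by 0.38 ± 0.043 at day 0, 0.84 ± 0.048 at day 2 and 0.61 ± 0.051 at day 4 in alpha-KO and by 0.43 ± 0.048 at day 0, 1.06 ± 0.048 at day 2 and 0.76 ± 0.050 at day 4 in full-KO (edgeR adjusted p = 3.19e-10, 4.93e-23 and 3.11e-17 in full-KO). Its 11 neighbours had medians of 0.45, 0.61 and 0.54 in alpha-KO and 0.55, 0.57 and 0.63 in full-KO. The gap to WT widened by day 2, with a difference in change of 0.46 ± 0.065 in alpha-KO and 0.63 ± 0.068 in full-KO (edgeR adjusted p = 1.87e-07 in alpha-KO and 3.86e-10 in full-KO).

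Mrpl30, the counterpart of the large-subunit protein L30 (chromosome 1, 37890477 to 37898535), was higher by 0.53 ± 0.057 at day 0, 0.74 ± 0.063 at day 2 and 0.59 ± 0.064 at day 4 in alpha-KO and by 0.46 ± 0.064 at day 0, 0.62 ± 0.063 at day 2 and 0.38 ± 0.065 at day 4 in full-KO. At day 2 it had 57.9, 61.4 and 54.97 CPM in alpha-KO and 53.8, 50.9 and 56.2 CPM in full-KO, against 35.2, 34.1 and 35.2 CPM in WT, with no overlap. Its 20 neighbours had medians of 0.54, 0.46 and 0.53 in alpha-KO and 0.56, 0.49 and 0.52 in full-KO.
Mrpl44, a large-subunit protein with a fold like that of RNase III (chromosome 1, 79776018 to 79781445), was higher by 0.48 ± 0.065 at day 0, 0.61 ± 0.071 at day 2 and 0.54 ± 0.073 at day 4 in alpha-KO and by 0.43 ± 0.073 at day 0, 0.56 ± 0.071 at day 2 and 0.58 ± 0.072 at day 4 in full-KO. At day 0 it had 67.2, 68.2 and 64.1 CPM in alpha-KO and 63.1 and 64.98 CPM in full-KO, against 46.7, 48.3 and 47.6 CPM in WT, and the ranges were apart. Its 20 neighbours had medians of 0.49, 0.49 and 0.47 in alpha-KO and 0.44, 0.37 and 0.49 in full-KO.

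Mrps14, of the small-subunit head (chromosome 1, 160195215 to 160202170), was the member of chromosome 1 that differed between alpha-KO and full-KO at day 0. On that day it had 54.9, 58.7 and 53.2 CPM in alpha-KO and 43.6 and 42.9 CPM in full-KO, against 42.8, 44.5 and 42.9 CPM in WT. Alpha-KO lay above all other libraries (log2 fold change 0.36 ± 0.074 SE, edgeR adjusted p = 1e-04), and full-KO lay within the WT range (log2 fold change -0.006 ± 0.085 SE, edgeR adjusted p = 0.975); the difference between alpha-KO and full-KO was called, at 0.36 ± 0.083.
At day 2 it had 38.97, 46.8 and 43.7 CPM in alpha-KO and 36.6, 37.1 and 42.3 CPM in full-KO, against 30.3, 32.97 and 32.4 CPM in WT, and both genotypes were higher, by 0.44 ± 0.078 in alpha-KO and 0.28 ± 0.078 in full-KO. At day 4 the values were 0.23 ± 0.083 in alpha-KO and 0.22 ± 0.082 in full-KO. 
Its 20 neighbours had medians of 0.16, 0.22 and 0.23 in alpha-KO and -0.064, -0.094 and 0.033 in full-KO. The call of Mrps14 was lost without alpha-KO replicate 1 or WT replicate 1 in alpha-KO at day 4 (log2 0.16 to 0.21, edgeR adjusted p = 0.0502 to 0.142). In full-KO at day 4 the call of Mrps14 was lost without full-KO replicate 3 or WT replicate 1 or 3 (log2 0.14 to 0.21, edgeR adjusted p = 0.059 to 0.205).

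**Figure D5:**
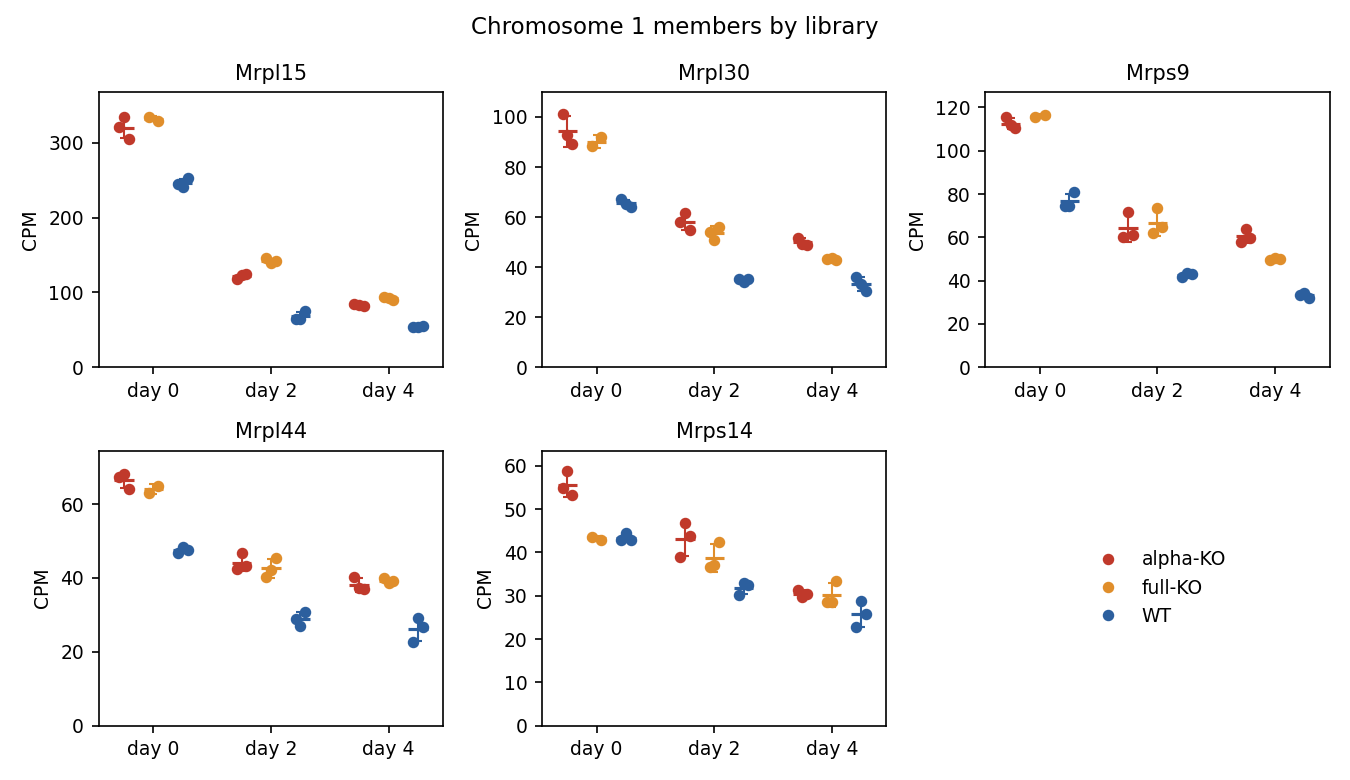
CPM by library (vertical axes, from 0) and day for the 5 members on chromosome 1; points are libraries of alpha-KO, full-KO and WT, horizontal lines with whiskers are mean ± SD. For Mrpl15, Mrpl30, Mrps9 and Mrpl44 all knockout libraries lie above the WT libraries of the same day, and for Mrps14 the full-KO libraries lie within the WT range at day 0. Between a knockout and WT of the same day, 44.6% to 58.7% of all genes had ranges without overlap.

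Alpha-KO was also set against full-KO directly. At day 0, 4 members were higher and 8 lower in alpha-KO than in full-KO, beside 14.4% and 14.6% of all genes, with a median of -0.044. The counts of day 2 were 5 higher and 6 lower, beside 13.0% and 12.3%, with a median of -0.021. At day 4, 18 were higher and 1 lower, beside 17.4% and 15.4%, with a median of 0.080 against 0.015 for all genes.
The counts moved by over 1.5 times with 1 library left out: at day 0 the higher ones to 1 without full-KO replicate 2 and 2 without alpha-KO replicate 1, and the lower ones to 3 without full-KO replicate 1, 4 without alpha-KO replicate 2, and 5 without alpha-KO replicate 3 or full-KO replicate 2; at day 2 the higher ones to 3 without alpha-KO replicate 3 or full-KO replicate 2, and the lower ones to 3 without alpha-KO replicate 1 or full-KO replicate 3.
Mrps12 had 36.3, 38.99 and 37.1 CPM in alpha-KO and 47.5 and 49.7 CPM in full-KO at day 0, without overlap (log2 fold change -0.38 ± 0.081 SE, edgeR adjusted p = 0.000283). Mrpl49 (-0.25 ± 0.066) and Mrpl45, which tethers the ribosome to the inner membrane (-0.24 ± 0.050), were also lower, and Mrps16 (0.28 ± 0.077) and Mrpl13 (0.21 ± 0.069) were higher. Mrps16 lies on chromosome 14, whose other genes had the medians against WT given above.
At day 2 Mrps6 had 23.1, 20.1 and 23.9 CPM in alpha-KO and 14.4, 14.9 and 13.6 CPM in full-KO (log2 fold change 0.64 ± 0.097 SE, edgeR adjusted p = 9.12e-07), and the groups were apart. Mrps21 (0.37 ± 0.089) and Mrpl54 (0.26 ± 0.075) were higher too, while Mrpl1 of the L1 stalk (-0.24 ± 0.070), Mrpl15 (-0.22 ± 0.045) and Mrpl40 (-0.20 ± 0.061) were lower.
At day 4 Mrpl14 had 12.2, 10.8 and 11.8 CPM in alpha-KO and 8.12, 8.26 and 8.35 CPM in full-KO (log2 fold change 0.49 ± 0.12 SE, edgeR adjusted p = 0.00082). Mrpl36 had 15.7, 17.7 and 14.9 CPM in alpha-KO and 12.2, 11.5 and 11.3 CPM in full-KO (0.47 ± 0.099). In neither gene did the groups overlap; Mrps34 (0.56 ± 0.20) and Mrps24 (0.36 ± 0.075) were higher as well, and Mrpl15 was lower (-0.14 ± 0.048). Between alpha-KO and full-KO at day 0, calls were lost for Mrpl49 without full-KO replicate 1, for Mrps16 without full-KO replicate 2 and for Mrpl13 without alpha-KO replicate 1 or full-KO replicate 2 (log2 0.16 to 0.27 and -0.22, edgeR adjusted p = 0.0514 to 0.218). Calls were lost for Mrpl54 without alpha-KO replicate 3, for Mrpl1 without alpha-KO replicate 3 and for Mrpl40 without alpha-KO replicate 1 or full-KO replicate 3 between alpha-KO and full-KO at day 2 (log2 0.21 and -0.15 to -0.20, edgeR adjusted p = 0.05 to 0.113). With 1 library left out, calls were lost for Mrps34 without alpha-KO replicate 1 or full-KO replicate 1 or 3 and for Mrpl15 without alpha-KO replicate 2 or 3 or full-KO replicate 1 between alpha-KO and full-KO at day 4 (log2 0.40 to 0.54 and -0.13 to -0.14, edgeR adjusted p = 0.0506 to 0.162).

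Mrps18a, Mrps18b and Mrps18c are paralogs related to bacterial S18; the first sits in the large subunit and the other two in the small one. In WT at day 4, Mrps18b changed by -1.24 ± 0.078, Mrps18a by -0.53 ± 0.073 and Mrps18c by -0.45 ± 0.12, and all 3 fell. Mrps18b had 43.4, 45.5 and 41.6 CPM at day 0, 26.1, 27.96 and 28.8 CPM at day 2 and 19.1, 19.2 and 17.2 CPM at day 4. Mrps18c had 21.1, 19 and 17.7 CPM at day 0, 18.8, 15.7 and 19.6 CPM at day 2 and 14.5, 13.9 and 13.96 CPM at day 4, and its value at day 2 was -0.097 ± 0.12 and not called.
Against WT, Mrps18a and Mrps18c were not called in either genotype on any day, from -0.12 to 0.21. Mrps18b was called lower in alpha-KO at day 0 (-0.20 ± 0.071) and day 4 (-0.22 ± 0.087) and higher in full-KO at day 2 (0.20 ± 0.075).
23.2% of the exonic bases of Mrps18c are shared with another annotated gene on the same strand, and 30.5% of those of Mrps18b lie opposite an antisense gene. In alpha-KO at day 0, the call of Mrps18b was lost without alpha-KO replicate 2 or 3 or WT replicate 1 or 2 (log2 -0.14 to -0.20, edgeR adjusted p = 0.0511 to 0.164). The call of Mrps18b was lost without alpha-KO replicate 2 or 3 or WT replicate 1 or 2 in alpha-KO at day 4 (log2 -0.18 to -0.20, edgeR adjusted p = 0.0794 to 0.124). In full-KO at day 2 the call of Mrps18b was lost without full-KO replicate 3 or WT replicate 1 (log2 0.15 to 0.17, edgeR adjusted p = 0.0943 to 0.156).

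Mrpl58, also called ICT1, is a peptidyl-tRNA hydrolase that became part of the large subunit and can free stalled ribosomes. It had 34.7, 29.3 and 31.4 CPM at day 0, 22.9, 24.7 and 25.7 CPM at day 2 and 15.2, 20.01 and 15.6 CPM at day 4 in WT, a change of -0.91 ± 0.091 by day 4. At day 4 it had 20.7, 20.3 and 22.2 CPM in alpha-KO and 19.2, 21.4 and 19.1 CPM in full-KO, against 15.2, 20.01 and 15.6 CPM in WT. Alpha-KO lay above WT (log2 fold change 0.31 ± 0.095 SE, edgeR adjusted p = 0.0055), and full-KO overlapped it (0.23 ± 0.094, and 0.37 without WT replicate 2). 
Mrpl12, the stalk protein, had 59.99, 62.9 and 64.05 CPM in alpha-KO and 46.5, 52.1 and 50.6 CPM in full-KO at day 4, against 52.9, 52.5 and 50.96 CPM in WT. Alpha-KO was higher (log2 fold change 0.26 ± 0.061 SE, edgeR adjusted p = 0.000341), and full-KO was not called (-0.065 ± 0.062).
Mrps36 is now assigned to the 2-oxoglutarate dehydrogenase complex rather than to the ribosome. It had 3.56, 5.72 and 3.43 CPM at day 0, 5.14, 4.67 and 6.87 CPM at day 2 and 4.35, 3.63 and 4.54 CPM at day 4 in WT and passed the test in none of the comparisons over time or against WT, with values in WT of 0.39 ± 0.21 at day 2 and -0.025 ± 0.22 at day 4. In full-KO at day 4, the call of Mrpl58 was lost without full-KO replicate 2 or WT replicate 1 or 3 (log2 0.16 to 0.17, edgeR adjusted p = 0.189 to 0.203).

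Most genes that build and serve the same ribosome also fell in WT. For comparison, 34.0% of all genes tested fell and 36.7% rose at day 2, and 36.7% fell and 40.7% rose at day 4. Of the 5 ribosomal subunits whose names fall outside the rule (Dap3, Ptcd3, Chchd1, Aurkaip1 and Gadd45gip1), 4 fell at day 2 and 5 fell at day 4 (medians -0.68 and -0.78), led by Gadd45gip1 at -1.51 ± 0.11. Against WT, they counted 2 higher in alpha-KO and 3 higher in full-KO at day 2, when 19.9% of all genes were higher in alpha-KO and 23.8% in full-KO.
Of 23 tested assembly factors of 24 listed, the enzymes and GTPases that process and fold the ribosomal RNAs, 21 fell at day 2 and 20 fell at day 4 (medians -0.69 and -0.73), with Gtpbp10, a GTPase, at -1.59 ± 0.082 and Rbfa, which matures the small subunit, at -1.15 ± 0.12. At day 2 they counted 6 higher in alpha-KO and 11 higher in full-KO than in WT, beside 19.9% and 23.8% of all genes.
Of 10 translation factors, 8 fell at day 2 and 8 fell and 1 rose at day 4 (medians -0.60 and -0.81); the elongation factor gene Tsfm changed by -1.29 ± 0.076, and the member that rose at day 4 was the release factor gene Mtrf1l (0.34 ± 0.15). Mtif3, an initiation factor gene, is counted in both of these lists.
Of 17 mitochondrial aminoacyl-tRNA synthetase genes, 14 fell and 2 rose at day 2 and 12 fell and 3 rose at day 4 (medians -0.55 and -0.83). Of 16 tested genes of mitochondrial transcription and RNA stability, 15 fell and 1 rose at day 2 and 14 fell and 1 rose at day 4 (medians -0.80 and -0.91); Tefm, a transcription elongation factor, changed by -1.61 ± 0.10, and the exception was Polg, the mitochondrial DNA polymerase (0.51 ± 0.050).

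The RNAs that this ribosome translates are the mitochondrially encoded messengers, of which 7 of 13 listed were tested. In WT, 4 rose and 1 fell at day 2, beside 36.7% and 34.0% of all genes. At day 4 also 4 rose and 1 fell, beside 40.7% and 36.7%. Among those that rose was mt-Cytb, for cytochrome b, at 0.54 ± 0.063. The summed level of the listed messengers overlapped between the days in WT. It was 13430 to 15780 CPM at day 0, 15120 to 17610 at day 2 and 15350 to 18420 at day 4. In full-KO at day 0 all 7 tested were lower than in WT, beside 17.7% of all genes (median -0.35), with 1410 and 1419 CPM of mt-Cytb in full-KO against 1781, 2165 and 2260 CPM in WT.
The 84 proteins of the cytosolic ribosome also fell in WT, 82 of them at day 2 and 84 at day 4, with medians of -0.80 and -1.27. Against WT they counted 51 higher in alpha-KO and 44 higher in full-KO at day 2, beside 19.9% and 23.8% of all genes. At day 4 they counted 69 higher and 1 lower in alpha-KO, beside 28.7% and 24.0% of all genes. In full-KO at day 4, 59 were higher and 1 lower, beside 25.1% and 24.5%.
Of 11 regulators of nuclear genes for mitochondria, 10 fell and 1 rose at day 2 and 8 fell and 1 rose at day 4 (medians -0.46 and -0.95). Mycn, of the MYC family, changed by -3.28 ± 0.059 at day 4. Against WT at day 0, 4 of the 11 were lower and 1 higher in alpha-KO, with a median of -0.12, beside 20.9% and 17.7% of all genes. As single genes of this list, Mycn was lower by -1.26 ± 0.051 in alpha-KO and -0.46 ± 0.056 in full-KO, and Myc by -0.88 ± 0.077 in alpha-KO and -1.40 ± 0.093 in full-KO. These 2 genes do not stand for the list.

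Markers of cell types moved with the same groups, and their part in the results was not tested. The summed level of the 8 ESC markers at day 2 was 659 to 693 CPM in alpha-KO, 1066 to 1182 CPM in full-KO and 409.5 to 422 CPM in WT. At day 4 it was 294 to 314 CPM in alpha-KO, 417 to 439.5 CPM in full-KO and 100 to 112 CPM in WT. On both days full-KO was highest and WT lowest, without overlap.
The 9 fibroblast markers, Col1a1 and Vim among them, summed at day 0 to 1572 to 2306 CPM in alpha-KO, 491 to 662 CPM in full-KO and 2769 to 3620 CPM in WT, and at day 2 to 756 to 842 CPM in alpha-KO, 380.1 to 412 CPM in full-KO and 1325 to 1428 CPM in WT. WT was highest on both days, and none of the 9 was at 0 in all libraries of a group.
At day 2 the 6 primitive endoderm markers summed to 267 to 305 CPM in alpha-KO, 187 to 207 CPM in full-KO and 134 to 147 CPM in WT, and the 5 neural progenitor markers to 289 to 316 CPM in alpha-KO, 168 to 177 CPM in full-KO and 368 to 399 CPM in WT. The 5 neuron markers summed to 74.2 to 81.1 CPM in alpha-KO, 94.2 to 113 CPM in full-KO and 106 to 109.6 CPM in WT. Single markers did not all follow these sums. Of the ESC markers, Dppa5a averaged lower in alpha-KO than in WT at day 2, and Klf4 lower in full-KO than in WT at day 4. Klf4 averaged higher in alpha-KO than in full-KO on both days. The fibroblast marker Pdgfrb averaged slightly higher in alpha-KO than in WT at day 2. Nes, at 288 CPM in WT at day 2, made up most of the neural progenitor sum. On that day Nes, Pax6 and Zic1 averaged lower in both knockouts than in WT. Olig2 averaged higher in both, and Sox1 higher in alpha-KO only. Of the endoderm markers, Sox17 averaged lower in both knockouts and the others higher. Of the neuron markers, Neurog1 and Map2 averaged higher in both knockouts than in WT at day 2, and Dcx lower in both. Tubb3 and Elavl3 averaged lower in alpha-KO only. Dcx was at 0 in both full-KO libraries of day 0, and no other marker was at 0 in all libraries of a group.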

How the data were processed

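RNA of 26 libraries was sequenced. Per the labels' protocols, total RNA was taken with the RNeasy Mini kit and libraries were made with the KAPA Stranded mRNA-Seq kit. Per the submitters' processing notes, FastQC and STAR 2.7.1a were used with the mm10 build; no source used here names the counting tool, its strand setting or its annotation. The values deposited by the authors are raw read counts per gene, with versioned Ensembl IDs, in 1 table. Of its 55471 IDs, 55230 matched GENCODE M21, which gave names, coordinates (GRCm38, 1-based) and exon overlaps.
From the deposited counts, CPM on TMM-scaled library sizes and all tests were computed with edgeR 4.0.16 in R 4.3.3: filterByExpr kept 18412 genes, 9 group means were fitted over all 26 libraries (17 residual degrees of freedom), and p-values of the quasi-likelihood test were adjusted by the Benjamini-Hochberg method over all genes, with a threshold of 0.05. Fold changes are from the fitted model. The depth, from 13537267 to 20569706 counts per library, and 2 or 3 libraries per group limit the precision. The fit was tested on simulated counts.
The members and gene lists were chosen with earlier results of these data known. Members named in the text are those on chromosome 1, up to 4 called furthest in each direction in each comparison, those with the same call in both knockouts on all days, the 4 highest and 4 lowest per length, the Mrps18 paralogs, and Mrpl58, Mrpl12 and Mrps36; a few others were added after their values were seen. Replicate numbers did not pair the libraries: same-numbered libraries' deviations from their group means correlated at -0.118 to 0.125. Replicates of a group differed by more than sampling noise (chi-square per degree of freedom of at least 2.31). Alternatives were RLE scaling, TMM from genes outside chromosomes 1, 14 and Y, 2 other filters on low counts, a replicate block, DESeq2 1.42.0, a fit of only the groups compared, and leaving out each library in turn.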

Additional observations from a re-analysis of the deposited data

Results flagged for a closer look

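The changes between day 0 and a later day were tested for a difference between each knockout genotype and WT, and some differed. By day 2, 27 of 77 members had a higher value in alpha-KO than in WT, beside 17.5% of all genes. By day 4, 32 had a higher and 1 a lower value in alpha-KO, beside 24.2% and 19.7%. In full-KO, 24 had a higher and 1 a lower value by day 2, beside 15.7% and 12.8%, and 10 had a higher and 2 a lower value by day 4, beside 19.5% and 15.7%.
Some of these members were called below WT at day 0 and above WT later. They were picked by those calls, which fixes the sign of their difference in change. The share of all genes with such calls was not counted. Several of the calls were lost with 1 library left out, as given above. In alpha-KO by day 2 the members so picked were Mrpl17, Mrpl40, Mrpl49 and Mrps27, with log2 differences in change of 0.451, 0.349, 0.399 and 0.442. In alpha-KO by day 4 they were Mrpl11 with 0.388, Mrpl12 with 0.416, Mrpl40 with 0.478, Mrpl9 with 0.385 and Mrps27 with 0.464. In full-KO by day 2 they were Mrpl17 with 0.529, Mrpl18 with 0.454 and Mrpl51 with 0.344. Both genotypes share the WT libraries, and the ESC and fibroblast marker sums also differed between the genotypes on these days; their part in these values was not tested.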

How the results depend on the processing

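Single values were followed under the alternatives only for the named members, chosen by the rule given with the processing, and not for the rest. No called value of these members changed direction under the alternatives run, but medians near 0 did. The median of full-KO against WT at day 0 (-0.013) became 0.005 with TMM from genes outside chromosomes 1, 14 and Y and 0.007 without WT day 0 replicate 1. That of the difference in change of full-KO by day 4 (0.004) became -0.001 with the same TMM, -0.001 outside chromosome 1 and -0.003 with no filter, and that of alpha-KO against full-KO at day 2 (-0.021) became 0.006 without alpha-KO day 2 replicate 1. Which of the higher and lower counts was larger also changed under some alternatives in full-KO at day 0 and between alpha-KO and full-KO at day 2. Of the 810 medians and values of named members, 102 lost their call under at least 1 alternative and 54 gained one. Medians have no call to lose. Counts that moved by over 1.5 times were these, and the cause was not tested. The lower differences in change of full-KO by day 4 (2) became 1 with RLE scaling, with no filter, with the replicate block, with DESeq2 and with only the groups compared. The replicate block moved no other count that far; the replicate numbers do not pair the libraries. Members lower in full-KO at day 0 (10) became 5 with no filter and 6 with TMM from genes outside chromosomes 1, 14 and Y. Members lower in alpha-KO than in full-KO became 3 at day 2 with no filter, and 5 at day 0 with only the groups compared. With only the groups compared, alpha-KO had 1 member lower at day 2 and 2 lower differences in change by day 4.
With 1 library left out, members lower in full-KO than in WT at day 0 ranged from 3 (without full-KO day 0 replicate 2) to 9, and were 5 without WT day 0 replicate 1. Members lower in alpha-KO at day 4 ranged from 4 (without WT day 4 replicate 1 or 3) to 8. Between alpha-KO and full-KO, the higher and lower members ranged from 1 to 4 and from 3 to 6 at day 0, and each from 3 to 5 at day 2; the lower one of day 4 ranged from 0 (without alpha-KO day 4 replicate 2 or 3, or full-KO day 4 replicate 1) to 1. The lower differences in change of alpha-KO by day 4 ranged from 0 (without alpha-KO day 4 replicate 3) to 2 (without WT day 4 replicate 2). In full-KO the lower one by day 2 ranged from 0 (without full-KO day 0 replicate 1) to 1, and those by day 4 from 0 (without either full-KO day 0 library or WT day 0 replicate 3) to 4 (without WT day 0 replicate 1), and were 1 without full-KO day 4 replicate 1 or WT day 4 replicate 3. The higher ones by day 4 ranged from 5 (without full-KO day 0 replicate 2) to 11. Where full-KO at day 0 was left with 1 library, it was assumed to vary like the other groups. Depth limits the members of lowest count, such as Mrps36 and Mrps34.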
